A study of Mus musculus with 15 samples.

Results

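High-affinity light zone B cells were compared with low-affinity light zone B cells, in 7 of the 15 arrays of the study. The members were the 3 arrays whose titles give light zone cells of high affinity (LZ_high) and the 4 whose titles give light zone cells of low affinity (LZ_low). In all of them the cells were donor B cells of the SwHEL strain, which carry a knocked-in antigen receptor for hen egg lysozyme and the congenic marker CD45.1. They had been transferred into C57BL/6J mice (CD45.2) that were immunized with sheep red blood cells coupled to the lysozyme mutant HEL3x, and were sorted from spleen on day 10. The labels give female sex for the samples and no age. Every sample was gated as CD45.1+, CD45.2-, IgG1+ and CD38 low, and the light zone as CD86 high and CXCR4 low. How affinity was gated is not stated in the labels. The other 8 arrays hold dark zone cells of high and of low affinity (DZ_high and DZ_low), sorted as CXCR4 high and CD86 low. An experiment code in the sample descriptions, read here as a shared day of sorting, links the LZ_high and LZ_low arrays of experiments A, B and C. The LZ_low array of experiment D has no LZ_high partner. The code of experiment B is written differently for the light zone and the dark zone arrays, so whether these are the same experiment is not known. Values of LZ_high arrays are given below in the order A, B, C and those of LZ_low arrays in the order A, B, C, D.

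In the germinal centre, B cells divide and mutate their receptor genes in the dark zone and then move to the light zone. There they take up antigen through the receptor, present its peptides on MHC class II molecules and compete for help from follicular helper T cells. Cells that receive help switch on genes of growth and of the cell cycle and return to the dark zone, while others die or leave as memory B cells or plasma cells. Affinity of the receptor sets how much antigen a cell captures.

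The measurements were RMA values, which are on the log2 scale, so a difference of 1 is a 2-fold difference. They were tested over 19938 genes, 1 probe set per gene, and the array medians lay between 5.57 and 5.74. The LZ_low array of experiment D stood apart from the other light zone arrays. Its correlation with them over all genes was between 0.926 and 0.954, against values between 0.944 and 0.992 among the other 6. The median level of 23 measured neutrophil markers was 4.73, 5.60 and 5.24 in LZ_high arrays, against 4.78, 5.38, 5.60 and 8.05 in LZ_low arrays, the last being experiment D. S100a9, a calcium-binding protein gene abundant in neutrophils, had levels of 6.07, 10.35 and 6.45 in LZ_high arrays, against 6.47, 9.86, 9.82 and 12.24 in LZ_low arrays. It was thus high in both arrays of experiment B, and within experiment C in the low-affinity array alone. Lcn2, encoding lipocalin 2, was at 4.70, 5.79 and 5.31 in LZ_high arrays, against 4.85, 5.38, 5.68 and 10.15 in LZ_low arrays. The medians of 23 T cell markers were between 5.20 and 5.40 in LZ_high arrays, against 5.30 to 5.55 in the LZ_low arrays of A to C and 6.30 in that of D. Those of 19 NK cell markers were between 4.17 and 4.30 in LZ_high arrays, against 4.08 to 4.30 and, in D, 5.37. B cell markers, 9 of which were measured, had medians of 9.49 to 10.0 in LZ_high arrays, against 9.91 to 9.95 in LZ_low arrays. RMA gives no detection calls, so no marker is listed at 0. Results are therefore given also without the LZ_low array of experiment D, and the part of these marker genes in the results was not tested.

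**Figure D1:**
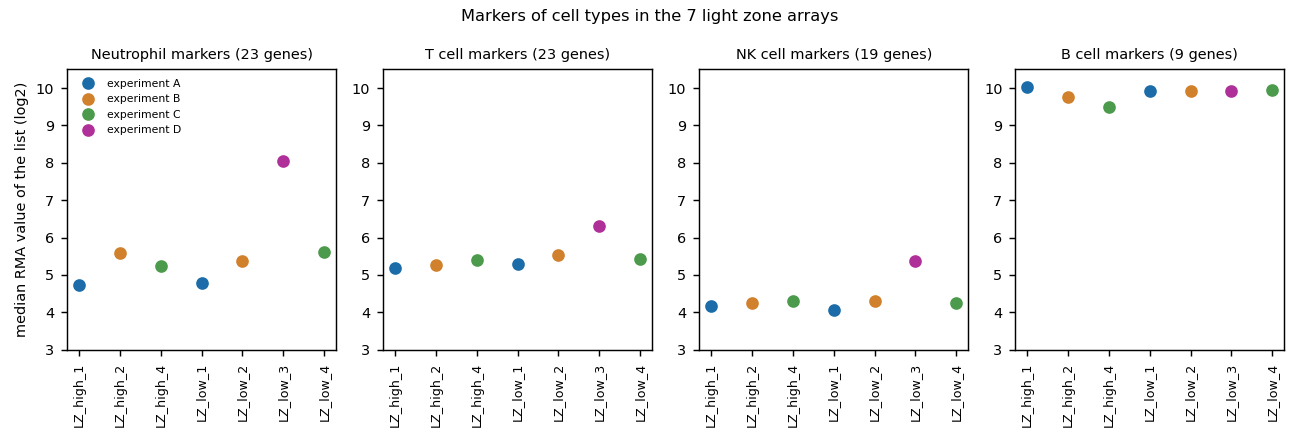
Median RMA value (log2) of 4 lists of cell type markers in each of the 7 light zone arrays, LZ_high arrays left of LZ_low arrays, coloured by experiment. The neutrophil, T cell and NK cell medians of the LZ_low array of experiment D, at 8.05, 6.30 and 5.37, lie above those of the other 6 arrays.

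Which genes differ between high-affinity and low-affinity light zone cells was asked first of each gene alone. Limma called 0 of 19938 genes (0%) at an adjusted p under 0.05, and the lowest adjusted p was 0.751. At an unadjusted p under 0.05, 327 genes were higher (1.64%) and 470 lower (2.36%) in LZ_high cells. Where no gene differs, a share of about 0.05 of genes is expected to reach such a p on average. The total of 797 in this fit lay below that share. Without the LZ_low array of experiment D, limma called 0 again, and 251 genes were higher (1.26%) and 356 lower (1.79%) at an unadjusted p under 0.05. With the experiment code as a block on the 7 light zone arrays alone, limma also called 0, with 1329 genes (6.67%) at an unadjusted p under 0.05. Without the LZ_high array of experiment A that count was 1227, against 797 with all arrays. LZ_high and LZ_low arrays did not overlap for 450 genes that were higher (2.26%) and 457 that were lower (2.29%). Over all genes 3121 (15.7%) were higher in all 3 pairs and 2393 (12%) lower in all 3. Differences within experiments were weakly related. Across the 19938 genes, the differences within A and within B had a Pearson correlation of 0.230, against 0.0729 for A with C and 0.0586 for B with C. The points of these correlations share arrays and normalization, and genes are not independent replicates. The labels do not say whether each sample came from separate mice, so the p-values measure only the spread between these samples. In sorted bulk samples, fewer cells of a type and less RNA per cell cannot be told apart.

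The genes of the following account did not pass the test over all genes, and their values are given as measured differences. Those named in the next paragraphs were taken for the same sign in all 3 pairs and the largest moderated t in each direction. Their differences also had to be at least 0.5 in size with and without the LZ_low array of experiment D. Members named with a list below were taken by the same sign and moderated t within that list. This leaves aside panel genes and those picked after their values were seen. So none of these features is a result, and such a choice also favours groups that do not overlap. Over all genes, the groups did not overlap for 2.26% that were higher and 2.29% that were lower. Among the 12 taken as higher, those with the largest differences were Fabp5, Tnfsf9 and Eef1e1. Tnfsf9 encodes 4-1BB ligand, which B cells display to activated T cells. It had levels of 7.87, 7.31 and 8.24 in LZ_high arrays, against 7.05, 6.22, 6.57 and 6.48 in LZ_low arrays. Every LZ_high array lay above every LZ_low array. The difference was 1.23 ± 0.28 (SE), or 2.35-fold (limma, adjusted p = 1), and 1.20 without the array of D. Fabp5, a fatty acid-binding protein gene, was at 7.02, 7.37 and 7.69 in LZ_high arrays, against 6.02, 6.61, 5.74 and 6.20 in LZ_low arrays. All LZ_high levels were above all LZ_low levels. Its difference was 1.22 ± 0.33, or 1.24 without the array of D, and its other probe set gave 1.23.

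Several of the other genes taken as higher belong to growth and division. Eef1e1, which encodes a scaffold protein of the aminoacyl-tRNA synthetase complex, was at 9.74, 9.93 and 10.13 in LZ_high arrays, against 9.12, 9.21, 8.99 and 7.95 in LZ_low arrays. The low value of the D array carries part of its difference, which was 1.12 ± 0.28 with that array and 0.83 without it. Tyms, encoding the thymidylate synthase that supplies a DNA building block, was at 8.85, 8.88 and 8.96 in LZ_high arrays, against 8.49, 7.92, 8.10 and 7.70 in LZ_low arrays. The 3 LZ_high levels lay close together and above all LZ_low levels, with a difference of 0.85 ± 0.21, or 0.73 without the array of D. Pno1, a factor of small ribosomal subunit assembly, differed by 0.91 ± 0.23, or 0.87 without that array, and Rpp25, a subunit of the RNA-processing enzymes RNase P and RNase MRP, by 0.79 ± 0.20, or 0.87 without it. Gcsh, encoding the H protein of the glycine cleavage system, differed by 0.99 ± 0.27, or 0.90, and Ndufaf6, an assembly factor of respiratory complex I, by 0.96 ± 0.26, or 0.97. The array of D moved these 4 genes little, which the choice of genes favoured. Without the LZ_high array of experiment C, the highest for both genes, the difference was 0.58 for Ndufaf6 and 0.62 for Pno1. That of Rpp25 was 0.61 without the LZ_high array of B. Endod1, an endonuclease domain gene, had the largest moderated t of the 12. It was dim, with LZ_low levels below the array medians of 5.57 to 5.74. Its levels were 6.03, 5.78 and 5.64 in LZ_high arrays, against 4.80, 5.30, 5.08 and 5.15 in LZ_low arrays, a difference of 0.73 ± 0.14 (limma, adjusted p = 0.751), or 0.75 without the array of D.

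Of the 12 genes taken as lower in high-affinity cells, Serpinb1a had the largest difference. It encodes an inhibitor of serine proteases and was at 5.79, 6.35 and 5.72 in LZ_high arrays, against 7.87, 8.03, 7.33 and 7.04 in LZ_low arrays. No array of one group reached the range of the other, and the LZ_low array of D was the lowest of its group. The difference was -1.61 ± 0.36, which is 3.06-fold lower in LZ_high cells (limma, adjusted p = 1), and -1.79 without the array of D. Ccr6, a chemokine receptor gene linked to memory B cells, had levels of 5.01, 5.13 and 5.28 in LZ_high arrays, against 5.64, 6.01, 5.99 and 6.07 in LZ_low arrays. These groups did not overlap either, with a difference of -0.79 ± 0.14 (limma, adjusted p = 0.751), or -0.74 without the array of D. The LZ_high levels of Ccr6 lay below the array medians of 5.57 to 5.74. Arhgef3 was at 6.10, 6.03 and 5.60 in LZ_high arrays, against 6.91, 7.09, 7.43 and 7.52 in LZ_low arrays. Its difference of -1.32 ± 0.24 had the largest moderated t of the 12 (limma, adjusted p = 0.751) and was -1.23 without the array of D.

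Cd2, an adhesion receptor gene of T and B cells, was at 9.27, 9.80 and 9.33 in LZ_high arrays, against 10.43, 10.43, 10.87 and 10.30 in LZ_low arrays. Its difference was -1.04 ± 0.20, or -1.11 without the array of D. Cd2 is also in the list of T cell markers, and the part of T cells in its difference was not tested. Notch2, the receptor gene that directs B cells to the marginal zone, was at 5.87, 5.98 and 5.61 in LZ_high arrays, against 6.54, 6.31, 7.31 and 7.20 in LZ_low arrays. Its groups were apart, with a difference of -1.02 ± 0.23, or -0.90 without the array of D. Map3k1, a kinase of the JNK pathway, differed by -1.18 ± 0.27, or -1.15 without it, and Arhgap30 by -0.61 ± 0.14, or -0.60. Fam102a differed by -1.16 ± 0.26, or -0.99, and the urea transporter gene Slc14a1 by -1.44 ± 0.34, or -1.67. The G protein subunit gene Gna15 differed by -0.70 ± 0.17, or -0.55. Map3k1 differed by -0.80 without the LZ_high array of C, and Slc14a1 by -1.01 without the LZ_low array of C. Sirpa, a receptor gene known from myeloid cells, was at 6.70, 7.19 and 6.06 in LZ_high arrays, against 7.80, 7.91, 7.82 and 9.01 in LZ_low arrays. The array of D was the highest, and the difference was -1.49 ± 0.36 with it and -1.20 without it. Anxa6, a phospholipid-binding annexin gene, differed by -1.35 ± 0.30, or -1.11 without the array of D, while its dimmer probe set gave -0.25, so the probe sets of that gene disagree.

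**Figure D2:**
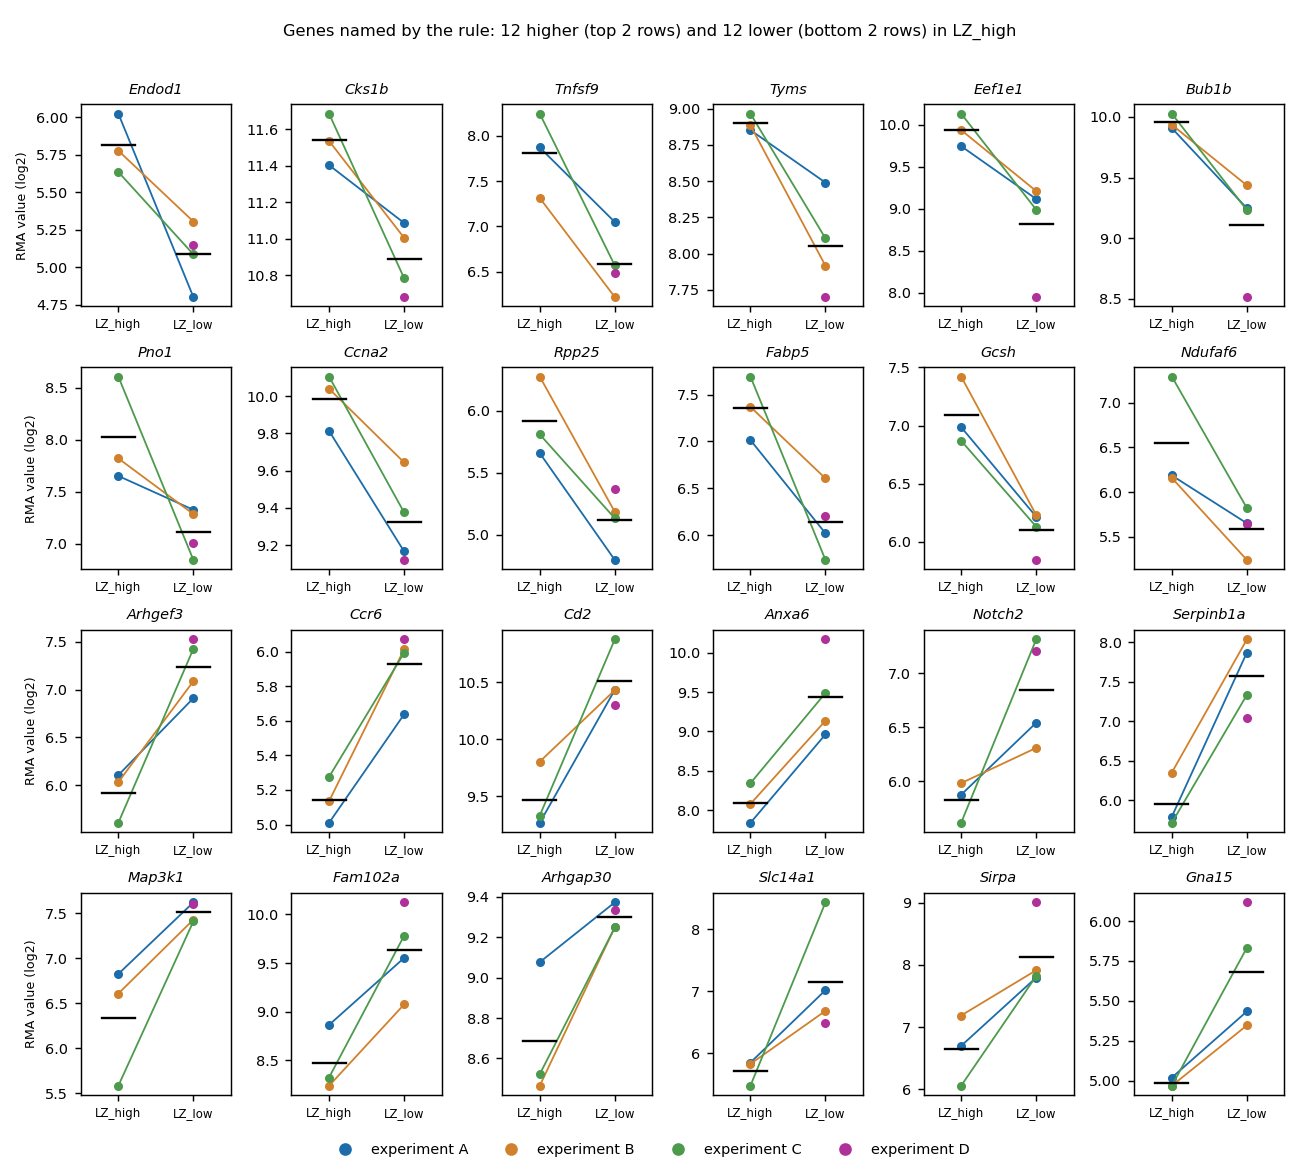
RMA values (log2) of the 24 genes taken by the rule, the 12 higher ones in the upper panels and the 12 lower ones in the lower panels, LZ_high left of LZ_low. Lines join arrays of the same experiment, the unpaired point is the LZ_low array of experiment D and bars are group means. Each line runs the way of its gene's group difference, which the choice of genes fixed, and the point of D lies close to the other LZ_low arrays for Ccr6, Tnfsf9 and Arhgap30 and apart from them for Sirpa and Bub1b.

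Differences of at least 2-fold were seen for 98 genes that were higher and 81 that were lower, or 24 and 55 without the array of D. In each of the 3 pairs, 1 gene was higher and 3 were lower by that much. They were named after their values were seen, apart from Serpinb1a and Anxa6. The higher one was 6720489N17Rik, at 8.55, 7.81 and 9.58 in LZ_high arrays, against 6.83, 6.42, 4.47 and 6.28 in LZ_low arrays. Its difference of 2.65 ± 0.71 stood at 1.72 in experiment A, 1.40 in B and 5.11 in C (limma, adjusted p = 1). The third lower one was B3gnt5, which encodes an enzyme of glycosphingolipid synthesis. It was at 6.60, 6.40 and 5.90 in LZ_high arrays, against 8.09, 7.57, 7.15 and 6.38 in LZ_low arrays. The D array lay within the LZ_high range, and the difference was -0.999 ± 0.35 with it and -1.31 without it.

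Most genes of G2/M and mitosis had higher measured levels in high-affinity light zone cells, though none passed the test over all genes. Of 82 measured members, 77 lay above 0, against 49.9% of all genes, and the median difference was 0.65, against -0.00 over all genes. Without the array of D, 80 lay above 0 with a median of 0.38, against 0.02 over all genes. Of all genes 50.1% lay below 0. In all 3 pairs 49 members (59.8%) were higher and 0 lower, against 15.7% and 12% of all genes. By experiment the median was 0.52 in A, 0.44 in B and 0.17 in C, where the median over all genes was 0.10. At an unadjusted p under 0.05, 20 members were higher, against 1.64% of all genes, and 0 lower, against 2.36%. Without the array of D, 10 were higher, against 1.26% of all genes, and 0 lower, against 1.79%. Limma called 0 members at an adjusted p under 0.05. LZ_high and LZ_low arrays did not overlap for 21 members, all higher, against 2.26% of all genes. The median level of the list was 8.90, 9.12 and 8.49 in LZ_high arrays, against 8.27, 8.56, 8.39 and 7.23 in LZ_low arrays, so the groups overlap at experiments B and C, and the array of D was the lowest.

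The promoters of such genes often hold the cell cycle homology region, TTTGAA, and the box CCAAT, which is bound by NF-Y. TTTGAA was searched on both strands in the 250 bases before the start. It was present in 28 of 67 G2/M genes with a promoter in the reference table (41.8%), against 2440 of 15563 genes tested (15.7%). CCAAT was present in 47 (70.1%), against 38.8%, and both in 23 (34.3%), against 5.67%. The G2/M genes with TTTGAA had a median difference of 0.57 (n = 28), those without it 0.76 (n = 39), and without the array of D 0.36 and 0.47. A match describes these letters only. The 5 stretches below belong to G2/M genes that hold both motifs close together, within the stretch printed, and not merely anywhere in the 250 bases. Among such genes, those with the largest moderated t were taken. Ckap2 and Ccnb2, which hold the cell cycle homology region, had a larger moderated t than Mki67 but are not among the 5. The stretches are shown as examples of how these letters lie in promoters that hold both. Most promoters of the list hold only 1 of the motifs or none. They are from RefSeq, build GRCm38.p6, and lie at chr3:89418292-89418378 on the minus strand (Cks1b), chr4:118437344-118437431 on the minus strand (Cdc20), chr7:135716447-135716547 on the minus strand (Mki67), chr2:164769830-164769928 on the plus strand (Ube2c) and chr11:99024190-99024282 on the minus strand (Top2a). They are written 5′ to 3′ on the strand of the gene, with both motifs in capitals wherever they stand on either strand.
Cks1b: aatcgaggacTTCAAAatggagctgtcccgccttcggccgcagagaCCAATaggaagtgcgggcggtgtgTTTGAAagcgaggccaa
Cdc20: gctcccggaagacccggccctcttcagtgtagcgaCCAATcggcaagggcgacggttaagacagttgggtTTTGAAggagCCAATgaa
Mki67: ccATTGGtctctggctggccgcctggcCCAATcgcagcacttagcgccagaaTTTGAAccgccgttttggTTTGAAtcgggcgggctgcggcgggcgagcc
Ube2c: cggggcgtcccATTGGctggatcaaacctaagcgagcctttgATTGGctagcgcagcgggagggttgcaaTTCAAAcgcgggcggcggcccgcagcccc
Top2a: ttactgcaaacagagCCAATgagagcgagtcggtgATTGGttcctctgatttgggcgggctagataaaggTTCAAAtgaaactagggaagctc

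Cks1b, a small protein that binds cyclin-dependent kinases, was at 11.40, 11.54 and 11.69 in LZ_high arrays, against 11.09, 11.004, 10.78 and 10.68 in LZ_low arrays. The groups did not overlap, and the difference was 0.65 ± 0.14 (limma, adjusted p = 1), or 0.58 without the array of D. Bub1b, a kinase of the spindle checkpoint, was at 9.91, 9.94 and 10.03 in LZ_high arrays, against 9.25, 9.44, 9.23 and 8.51 in LZ_low arrays. The cyclin gene Ccna2 was at 9.81, 10.04 and 10.11 in LZ_high arrays, against 9.17, 9.64, 9.38 and 9.12 in LZ_low arrays. The array of D was the lowest for each of these 3 genes, and without it Bub1b differed by 0.65 and Ccna2 by 0.59. Cdc20, which activates the anaphase-promoting complex, was at 8.79, 9.43 and 9.02 in LZ_high arrays, against 8.05, 8.54, 8.32 and 8.03 in LZ_low arrays. Kif20a, a mitotic kinesin gene, differed by 0.60, 0.63 and 0.42 within experiments A, B and C. The cyclin gene Ccnb2 differed by 0.61, 0.70 and 0.27, and its difference was 1.06 ± 0.42 with the array of D and 0.53 without it. Mki67, the gene of the proliferation marker Ki-67, was at 9.65, 10.41 and 9.79 in LZ_high arrays, against 8.65, 10.03, 9.42 and 8.70 in LZ_low arrays. Its groups overlap, because the LZ_low array of B lay above the LZ_high arrays of A and C. Foxm1, a transcription factor gene for mitotic genes, differed by 0.44 ± 0.20.

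Hmmr and Ckap2 had some of the largest differences in the list and were picked after their values were seen. Hmmr, which encodes a protein of the mitotic spindle, was at 7.92, 8.13 and 6.83 in LZ_high arrays, against 6.18, 7.38, 5.03 and 4.42 in LZ_low arrays, and its groups overlap. Ckap2, a gene for a microtubule-associated protein, was at 7.99, 8.56 and 7.70 in LZ_high arrays, against 7.11, 7.51, 6.39 and 4.71 in LZ_low arrays. Its difference was 1.65 ± 0.65 with the array of D and 1.08 without it.

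**Figure D3:**
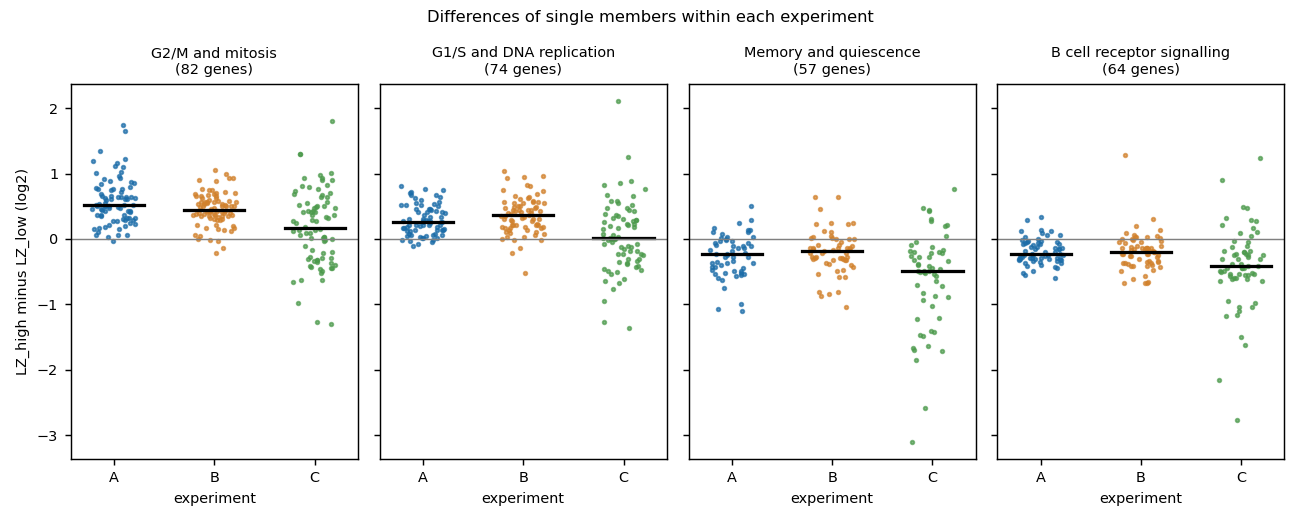
Difference LZ_high minus LZ_low (log2) of each measured gene of 4 lists within experiments A, B and C, 1 point per gene, with the list median as a bar. G2/M medians are 0.52, 0.44 and 0.17 and memory medians -0.24, -0.18 and -0.49, and the points of experiment C spread widest in each panel.

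The measured levels of most genes of G1/S and DNA replication were higher within experiments A and B, while the list's median within C was below that of all genes. Of 74 measured members, 67 lay above 0, or 63 without the array of D, and the median difference was 0.37, or 0.23 without it. It was 0.26 within A, 0.36 within B and 0.01 within C, where that over all genes was 0.10. In all 3 pairs 34 members (45.9%) were higher and 1 lower, against 15.7% and 12% of all genes. Ccne2, the gene of cyclin E2, was at 8.96, 8.89 and 8.86 in LZ_high arrays, against 8.42, 8.06, 6.75 and 6.77 in LZ_low arrays. The LZ_high levels lay close together, while the LZ_low levels of C and D lay far below those of A and B. Its difference was 1.40 ± 0.43, or 1.15 without the array of D. Dbf4, the activator of the replication kinase Cdc7, differed by 0.80, 0.28 and 0.58 within A, B and C. The letters TTTCCCGC, TTTGGCGC, TTTCGCGC or TTTGCCGC, forms of the E2F motif searched on both strands of the same 250 bases, were found in 14 of 59 promoters of the list (23.7%), against 2.87% over all genes.

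MYC targets and genes of ribosome biogenesis lay above 0 in 65 of 74 cases, or 68 without the array of D. Their median difference was 0.36, or 0.26 without it, and 0.34 and 0.42 within experiments A and B. Within C it was 0.11, near the 0.10 over all genes, with 47 of 74 members higher, against 12291 of 19938 genes. In all 3 pairs 43 members (58.1%) were higher and 0 lower, against 15.7% and 12% of all genes. At an unadjusted p under 0.05, 4 members were higher (1.64% over all genes) and 0 lower. Wdr75, a ribosome biogenesis factor, was at 9.46, 9.38 and 9.49 in LZ_high arrays, against 8.95, 8.71, 8.94 and 7.11 in LZ_low arrays. The array of D lay far below the rest, and the difference was 1.02 ± 0.36 with it and 0.58 without it. Rrp15, a gene of large ribosomal subunit maturation, differed by 0.51, 0.76 and 0.66 within A, B and C. Tfrc, the transferrin receptor gene through which growing cells take up iron, was at 9.32, 9.01 and 9.97 in LZ_high arrays, against 8.86, 8.45, 8.78 and 7.46 in LZ_low arrays. Myc itself was at 9.09, 8.88 and 8.0 in LZ_high arrays, against 8.37, 8.19, 8.74 and 8.30 in LZ_low arrays. It was higher within A and B, by 0.72 and 0.70, and lower within C, by -0.75. The E-box CACGTG was present in 9 of 65 promoters of the list (13.8%), against 8.12% over all genes.

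Genes of other growth functions showed smaller medians. Of 59 subunits of mitochondrial oxidative phosphorylation, 50 lay above 0, with a median of 0.16, or 0.17 without the array of D. Of these subunits 20 (33.9%) were higher in all 3 pairs and 2 (3.39%) lower, against 15.7% and 12% of all genes. Their median was 0.01 within experiment A, where 30 of 59 lay above 0, 0.30 within B and 0.18 within C, against 0.10 over all genes in C. Cox7a2, a subunit of cytochrome c oxidase, differed by 0.11, 0.40 and 0.75 within experiments A, B and C. Its difference was 0.39 over all arrays, or 0.25 without the LZ_high array of C. Of 36 proteasome genes, 32 lay above 0, with a median of 0.25, or 0.14 without the array of D. It was 0.05 within A, 0.28 within B and 0.05 within C, the last below that of all genes. Genes of DNA repair and hypermutation had a median of 0.27, or 0.15 without that array, but -0.14 within experiment C. Lists of glycolysis and hypoxia, cholesterol synthesis and the unfolded protein response had medians of 0.02, 0.06 and 0.04. Without the array of D these were 0.03, -0.01 and -0.00.

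**Figure D4:**
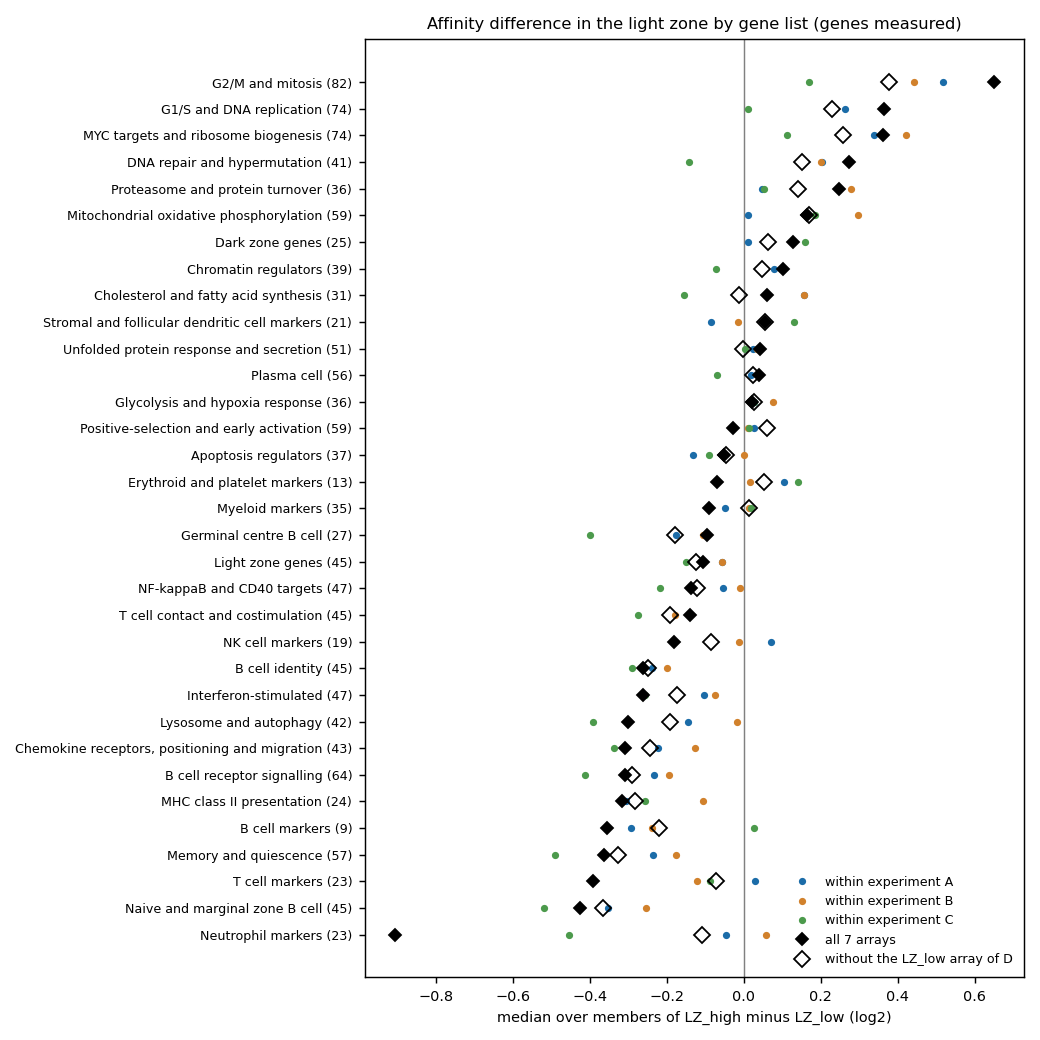
Median difference LZ_high minus LZ_low (log2) of each gene list over all 7 arrays (filled diamonds), without the LZ_low array of experiment D (open diamonds) and within experiments A, B and C (dots), with the number of genes measured. G2/M genes have the highest median, 0.65, or 0.38 without the array of D, and neutrophil markers the lowest, -0.91, or -0.11 without it.

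Most memory and quiescence genes had lower measured levels in high-affinity light zone cells, though none passed the test over all genes. Of 57 measured members, 49 lay below 0, or 50 without the array of D, and the median difference was -0.36, or -0.33 without it. In all 3 pairs 27 members (47.4%) were lower and 1 higher, against 12% and 15.7% of all genes. By experiment the median was -0.24 in A, -0.18 in B and -0.49 in C. Within the same pairs the neutrophil markers had medians of -0.05, 0.06 and -0.46. At an unadjusted p under 0.05, 17 members were lower, against 2.36% of all genes, and 0 higher, or 12, against 1.79%, and 0 without the array of D. Cmah, encoding an enzyme of sialic acid synthesis, was at 5.88, 6.05 and 5.93 in LZ_high arrays, against 6.42, 6.86, 7.78 and 7.24 in LZ_low arrays. Pecam1, an adhesion receptor gene, was at 8.34, 8.34 and 8.49 in LZ_high arrays, against 9.10, 9.18, 9.52 and 8.71 in LZ_low arrays. The groups did not overlap for either gene, and the array of D was the lowest LZ_low array for Pecam1. Hhex, a transcription factor gene needed for memory B cells in mice, was at 7.99, 7.97 and 7.12 in LZ_high arrays, against 8.98, 9.01, 8.54 and 7.44 in LZ_low arrays. Its low level in D made the groups overlap, and the difference was -0.80 ± 0.37 with that array and -1.15 without it. Bach2, a repressor gene that holds back plasma cell fate, was at 8.24, 7.98 and 6.93 in LZ_high arrays, against 8.84, 8.52, 8.40 and 8.68 in LZ_low arrays. Without the LZ_high array of C, the difference was -0.52 for Hhex and, with -0.89 over all arrays, -0.49 for Bach2.

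Naive and marginal zone B cell genes, 7 of which are also in the memory list, lay below 0 in 40 of 45 cases, or 42 without the array of D. Their median difference was -0.43, or -0.37 without it, and -0.35, -0.26 and -0.52 within experiments A, B and C. In all 3 pairs 29 members (64.4%) were lower and 1 higher, against 12% and 15.7% of all genes. The median level of this list was 8.09, 7.77 and 7.86 in LZ_high arrays, against 8.69, 8.16, 8.55 and 8.82 in LZ_low arrays, with no overlap. Fcer2a, the gene of the low-affinity IgE receptor CD23, was at 10.19, 10.02 and 10.17 in LZ_high arrays, against 10.91, 10.81, 11.06 and 10.35 in LZ_low arrays. Its difference was -0.65 ± 0.19 with the array of D, the lowest LZ_low array, and -0.80 without it. Cnr2, a cannabinoid receptor gene of resting B cells, differed by -0.62, -0.24 and -1.78 within A, B and C.

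Components of B cell receptor signalling lay below 0 in 53 of 64 cases, or 58 without the array of D. The median difference was -0.31, or -0.29 without it, and -0.23, -0.19 and -0.41 within experiments A, B and C. In all 3 pairs 39 members (60.9%) were lower and 1 higher, against 12% and 15.7% of all genes. Pik3cg, encoding a catalytic subunit of PI3 kinase, was at 8.94, 8.84 and 8.77 in LZ_high arrays, against 9.54, 9.52, 9.31 and 9.33 in LZ_low arrays. Lat2, an adaptor protein gene, was at 9.50, 9.22 and 9.30 in LZ_high arrays, against 9.87, 9.83, 9.75 and 9.96 in LZ_low arrays. Neither gene had overlapping groups, which their choice by moderated t favours. Syk, the kinase that first docks on the activated receptor, was at 9.32, 8.73 and 8.78 in LZ_high arrays, against 9.63, 9.29, 9.95 and 9.85 in LZ_low arrays. Its groups overlap by the high LZ_high level of A, and its difference was -0.74 ± 0.24. Cd79a, a signalling chain of the receptor, was at 9.61, 9.75 and 10.46 in LZ_high arrays, against 9.91, 9.89, 11.04 and 10.53 in LZ_low arrays, and was lower in each pair by -0.31, -0.14 and -0.57. Its difference was -0.40, or -0.17 without the LZ_low array of C and -0.66 without the LZ_high array of C.

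B cell identity genes, 9 of which are also in the receptor signalling list, had 35 of 45 members below 0 and a median of -0.26, or -0.25 without the array of D. In all 3 pairs 27 (60%) were lower and 1 higher, against 12% and 15.7% of all genes. Fcrla, an Fc receptor-like gene of B cells, was at 9.16, 9.28 and 9.33 in LZ_high arrays, against 9.72, 9.59, 9.95 and 9.47 in LZ_low arrays. Cd22, an inhibitory coreceptor gene, was at 11.05, 10.66 and 11.12 in LZ_high arrays, against 11.29, 11.13, 11.36 and 11.41 in LZ_low arrays. The groups were apart for both genes, for Cd22 by a very small gap, and the difference of Cd22 was -0.36, or -0.21 without the LZ_high array of B. Irf8 and Foxp1, transcription factor genes of B cells, differed by -0.37 ± 0.32 and -0.42 ± 0.22, and Irf8 by -0.20 without the LZ_low array of C. Foxo1, a transcription factor gene of the dark zone programme, differed by -0.14 ± 0.18.

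MHC class II presentation genes lay below 0 in 22 of 24 cases with or without the array of D. Their median difference was -0.32, or -0.28 without it, and -0.31, -0.11 and -0.26 within experiments A, B and C. In all 3 pairs 15 (62.5%) were lower and 0 higher, against 12% and 15.7% of all genes. Ciita, the transactivator gene of class II genes, was at 8.62, 8.15 and 8.03 in LZ_high arrays, against 9.13, 8.72, 8.97 and 9.08 in LZ_low arrays, with no overlap and a difference of -0.71 ± 0.21. H2-Eb2, a class II beta chain gene, differed by -0.58 ± 0.25, or -0.38 without the LZ_high array of C, and Ctsl, encoding the lysosomal protease cathepsin L, by -0.86 ± 0.26. The abundant class II chain gene H2-Aa was at 11.75, 11.75 and 12.22 in LZ_high arrays, against 11.91, 11.83, 12.30 and 12.22 in LZ_low arrays. Its difference of -0.16 ± 0.19 was smaller than its SE.

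Genes of contact with T cells had a median difference of -0.14, or -0.19 without the array of D, with 31 of 45 members below 0. In all 3 pairs 22 (48.9%) were lower and 3 (6.67%) higher, against 12% and 15.7% of all genes. Tnfsf9 was among the 3. Icosl, the ligand gene of the T cell costimulator ICOS, was at 8.18, 7.40 and 7.77 in LZ_high arrays, against 8.51, 8.04, 9.25 and 8.89 in LZ_low arrays. Icam2, an adhesion ligand gene, was at 7.97, 7.78 and 7.95 in LZ_high arrays, against 8.41, 8.29, 8.70 and 8.20 in LZ_low arrays. Icam2 showed no overlap and differed by -0.50 ± 0.13, while Icosl overlapped and differed by -0.89 ± 0.27. The sort marker Cd86 was at 10.90, 10.81 and 10.97 in LZ_high arrays, against 11.05, 10.92, 11.12 and 10.74 in LZ_low arrays, and Cxcr4 differed by -0.25 ± 0.23. The cytokine receptor gene Il4ra, for interleukin 4, was at 9.41, 9.05 and 9.86 in LZ_high arrays, against 9.94, 9.94, 10.58 and 11.16 in LZ_low arrays. Its difference was -0.97 ± 0.40 with the array of D and -0.71 without it. Il21r, the interleukin 21 receptor gene, differed by -0.55 ± 0.30.

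Chemokine receptors and other genes of positioning and migration lay below 0 in 36 of 43 cases with or without the array of D. The median difference was -0.31, or -0.24 without it. In all 3 pairs 24 members (55.8%) were lower and 3 (6.98%) higher, against 12% and 15.7% of all genes. Dock8, an exchange factor gene for Cdc42, differed by -0.48 ± 0.18, and the egress receptor gene S1pr1 by -0.57 ± 0.32. The pairs of S1pr1 went both ways, at -0.51, 0.24 and -1.67 within A, B and C, and without the LZ_low array of C its difference was -0.25. S1pr2, whose receptor keeps B cells inside the germinal centre, differed by -0.55 ± 0.30, or -0.37 without the array of D. Its pairs also went both ways, at -0.26, 0.04 and -0.90 within A, B and C. Gpr183, encoding the receptor EBI2, differed by -0.51 ± 0.35. Within A, B and C, Gpr183 differed by -0.54, -0.58 and -0.54, and without the LZ_high array of C its difference was -0.27. Myo1f, a class I myosin gene, differed by -1.19 ± 0.40 with the array of D, its highest, and by -0.73 without it. Of 47 interferon-stimulated genes, 39 lay below 0, and their median was -0.26, or -0.17 without the array of D. Ifit3, an antiviral effector gene, was at 5.42, 5.26 and 4.64 in LZ_high arrays, against 5.81, 5.64, 7.48 and 7.63 in LZ_low arrays. Its pair differences of -0.38, -0.38 and -2.84 were thus widest in C, as were those of Zbp1, a nucleic acid sensor gene, at -0.35, -0.39 and -1.32. Lysosome and autophagy genes had a median of -0.30, or -0.19 without the array of D, and -0.02 within experiment B. Psap, encoding the lysosomal protein prosaposin, differed by -0.85 ± 0.37 with that array and -0.60 without it.

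Genes of positive selection, which T cell help and receptor signals switch on in the light zone, did not lie to one side. Of 59 measured members, 25 lay above 0, or 37 without the array of D, and the median was -0.03, or 0.06 without it. Of all 19938 genes, 9952 lay above 0, or 11135 without that array. In all 3 pairs 12 (20.3%) were higher and 10 (16.9%) lower, against 15.7% and 12% of all genes. Batf, a transcription factor gene of activated B cells, was at 8.50, 8.28 and 8.99 in LZ_high arrays, against 7.98, 8.03, 8.06 and 8.01 in LZ_low arrays. All LZ_high arrays lay above the narrow LZ_low range, and the difference was 0.57 ± 0.20. Irf4, a transcription factor gene for plasma cell fate, was at 7.05, 6.44 and 7.30 in LZ_high arrays, against 6.27, 6.32, 6.53 and 6.55 in LZ_low arrays, and Slc7a1, an amino acid transporter gene, differed by 0.59 ± 0.24. Slc7a1 differed by 0.10, 0.22 and 1.27 within A, B and C, and its groups overlap. Without the LZ_high array of C, the differences were 0.30 for Slc7a1, 0.33 for Irf4 and 0.37 for Batf. The immediate early genes Egr1 and Egr2 differed by -0.18 ± 0.38 and -0.00 ± 0.25, and Nr4a1 by -0.46 ± 0.25, or -0.28 without the array of D. The activation marker gene Cd83 was lower in each pair, by -0.30, -0.38 and -0.38, with a difference of -0.45 ± 0.26. Cd40, whose receptor binds T cell CD40 ligand, differed by -0.29 ± 0.21, or -0.12 without the array of D. Targets of NF-kappaB and CD40 had a median of -0.14 over 47 members, or -0.12 without the array of D. Light zone genes had one of -0.11 over 45 members, or -0.13, and dark zone genes one of 0.13 over 25, or 0.06. Ccnb2, Cdc20 and Kif20a are among 10 genes shared by the dark zone and G2/M lists.

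Plasma cell genes had a median difference of 0.04 over 56 members, or 0.02 without the array of D, with 32 above 0. Prdm1, encoding the master regulator Blimp-1, was at 4.84, 4.20 and 4.55 in LZ_high arrays, against 4.47, 4.55, 4.48 and 4.48 in LZ_low arrays. The LZ_low levels lay close together, and the LZ_high levels lay on both sides of them. Xbp1, a factor for antibody secretion, differed by 0.01 ± 0.28. Bcl6, the master regulator gene of the germinal centre, was lower in each pair by -0.20, -0.16 and -0.18, and its difference was -0.28 ± 0.20. Ezh2, the gene of a chromatin-silencing enzyme, was at 11.31, 11.19 and 10.71 in LZ_high arrays, against 10.93, 10.92, 10.30 and 7.78 in LZ_low arrays. Its difference was 1.09 ± 0.71 with the array of D, in which it was low, and 0.36 without it. Apoptosis regulators had a median of -0.05 over 37 members. Bmf, a death-promoting gene, and Bcl2, a survival gene, were both lower in each pair, with differences of -0.56 ± 0.20 and -0.54 ± 0.23. That of Bcl2 was -0.33 without the array of D.

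The dark zone arrays entered the fit behind every SE and p above, and were also used to ask whether these differences belong to the light zone. Limma's interaction of affinity and zone called 0 of 19938 genes, with a lowest adjusted p of 1 and 266 genes (1.33%) at an unadjusted p under 0.05, so no difference above is shown to be particular to the light zone. The median difference of G2/M genes was 0.65 in the light zone, or 0.38 without the LZ_low array of D. Between DZ_high and DZ_low it was 0.14, and -0.10, 0.36, -0.01 and 0.14 within experiments A to D. The code of B is written differently there than in the light zone. Memory genes had a median of -0.36 in the light zone, or -0.33 without the array of D, and -0.07 in the dark zone. Naive and marginal zone genes had -0.43, or -0.37, and -0.17. Some other lists were more alike in both zones. G1/S genes had medians of 0.37, or 0.23 without the array of D, and 0.26. Those of B cell identity genes were -0.26, or -0.25, and -0.18, and those of MHC class II genes -0.32, or -0.28, and -0.20. Within dark zone experiments A to D, G1/S medians were 0.05, 0.51, 0.22 and 0.18. Those of B cell identity genes were -0.34, -0.07, -0.13 and -0.08 there. MHC class II medians were -0.29, 0.03, 0.004 and -0.57, so they lay on both sides of 0. Ccr6 differed by -0.79 ± 0.14 in the light zone and -0.08 ± 0.13 in the dark zone (limma interaction, adjusted p = 1). Fcer2a was lower in high-affinity cells in both, by -0.65 ± 0.19 and -0.99 ± 0.18. Cmah differed by -1.12 ± 0.35 in the light zone and by 0.62 ± 0.33 in the dark zone (limma interaction, adjusted p = 1). Plasma cell genes, at 0.04 in the light zone, had a median of 0.25 in the dark zone.

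**Figure D5:**
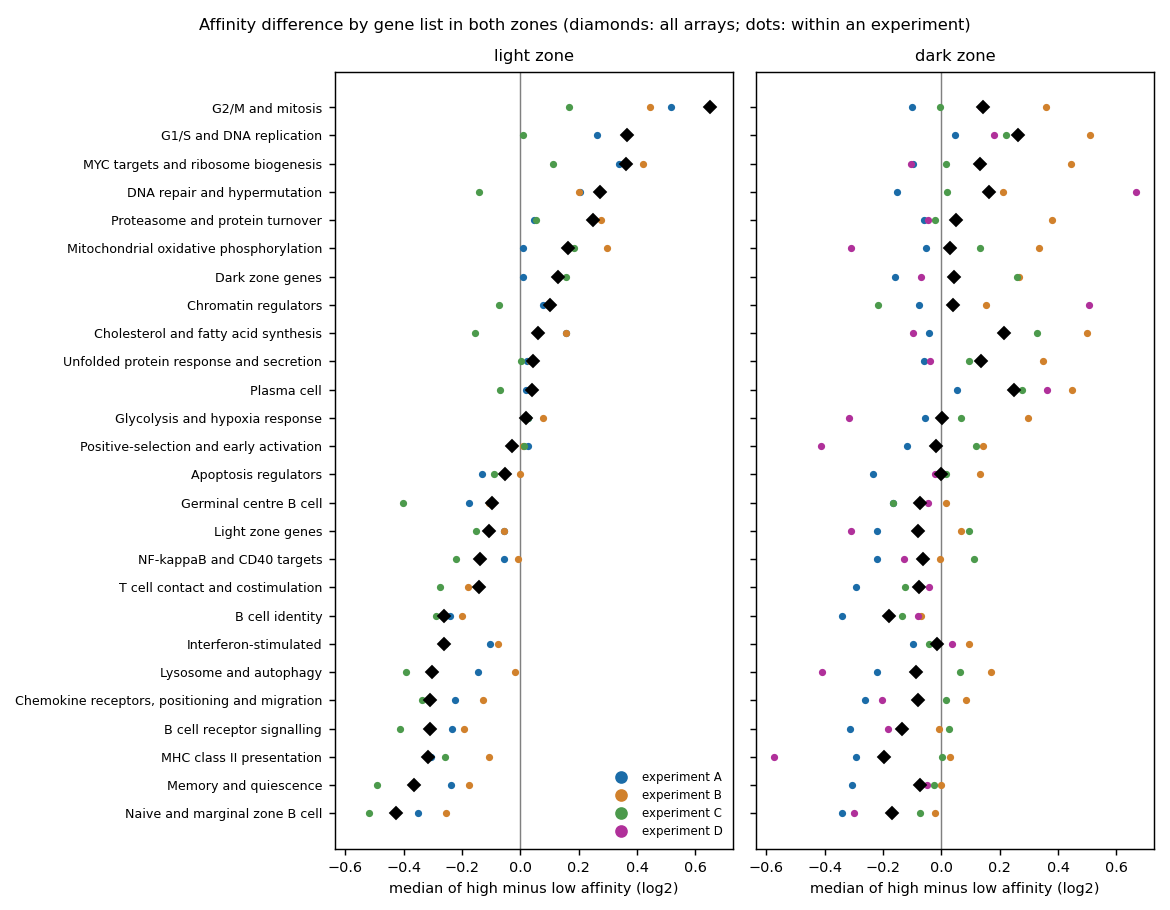
Median difference of high minus low affinity (log2) of each pathway list in the light zone (left) and the dark zone (right), over all arrays (diamonds) and within experiments (dots). G2/M genes stand at 0.65 and 0.14, memory genes at -0.36 and -0.07 and G1/S genes at 0.37 and 0.26. The within-experiment dots of the dark zone lie on both sides of 0 for most lists. The code of experiment B is written differently in the light zone and the dark zone.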

How the data were processed

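The labels' protocols describe sorting into Trizol, RNA amplification and biotin labelling for arrays of whole transcripts. Values in the authors' deposited table, 28853 probe sets by 15 arrays, are on the log2 scale and were made by RMA, as the submitters' processing notes state (build mm8). RMA subtracts background, normalizes arrays by quantiles and summarises probes, which compresses differences of dim probe sets. Its software version is not given in the sources used here. The number of arrays limits the precision.

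Probe sets with 1 gene in the platform annotation (21789) were kept, and those with several genes (1621) or none (5443) left out. By Entrez ID 21698 matched the reference table. Where a gene had more than 1 probe set (999 genes), the one with the highest mean was used, which left 19938 genes with no filter on dim genes. Arrays correlated at 0.993 or less, and none was treated as a duplicate.

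Limma 3.58.1 in R 4.3.3 (lmFit, eBayes) estimated 4 group means from the 15 arrays together (11 residual degrees of freedom). P-values were adjusted over all genes by the Benjamini-Hochberg method, and SE is the standard error in that fit. Lists (33, with 1485 entries, 109 of them not matched and not analysed here) were described by counts and medians, without a set test. The steps were tested on simulated data. Named genes were 12 per direction by moderated t among those with 1 sign in the 3 pairs and a difference of at least 0.5 with and without the array of experiment D, up to 3 per list and direction, and a panel of 50 genes, of which 46 were measured. S100a8, S100a9, Ngp, Lcn2, Hmmr, Ckap2, B3gnt5 and 6720489N17Rik were added after their values were seen. The members and lists were chosen with earlier results of these data known.

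Groups and replicate numbers come from the titles. LZ_high replicates 1, 2 and 4 are those of experiments A, B and C, and LZ_low replicates 1, 2, 4 and 3 those of A, B, C and D. Within the light zone the numbers pair arrays of the same experiment code. Deviations of same-code arrays from their group means correlated at 0.588 (A), 0.351 (B) and 0.262 (C), against a mean of -0.117 over 9 other combinations. The LZ_high array of C also correlated with the LZ_low array of D, at 0.395, and that of A with the LZ_low array of B, at 0.308. Deviations cancel within a group, so positive same-code correlations push those of the other combinations down. The contrast is therefore partly built in. Alternatives changed the block, the arrays included, the normalization, the filter, the probe set rule, the variance model and array weights. Promoter sequences are RefSeq's. Figures were drawn with matplotlib 3.10.9.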

Additional observations from a re-analysis of the deposited data

Results flagged for a closer look

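In LZ_low, the group of 4 arrays, 132 sets of levels (99 genes and 33 list medians) were checked for an array far from the other 3, by the ratio of its gap to the group's range, against Dixon's critical value for 4 samples. Chance gives about 1 in 20 for sets not chosen by their values. Many of these genes were chosen by their values in these arrays, and Lcn2 after its levels were seen. That rate therefore cannot be applied to them. The critical value was exceeded by 7 genes. In 5 of them the distant array was that of experiment D. Sirpa was at 9.01 there, against 7.80 to 7.91 in the others (ratio 0.903), and Cd44, a hyaluronan receptor gene, at 7.88, against 7.34 to 7.39 (0.904). Wdr75 was at 7.11, against 8.71 to 8.95 (0.869), Myo1f at 8.59, against 6.64 to 6.96 (0.833), and Lcn2 at 10.15, against 4.85 to 5.68 (0.843). In the other two genes the distant array was that of experiment C. Foxp1 was at 7.61 there, against 7.91 to 7.96 (0.863), and S1pr1 at 7.31, against 5.88 to 6.12 (0.832).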

How the results depend on the processing

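Limma called 0 genes at an adjusted p under 0.05 under all 33 alternatives tried, and 0 at an adjusted p under 0.1 with the settings of the report. The lowest adjusted p was 0.413 with the experiment code as a replicate block over all 15 arrays (829 genes at an unadjusted p under 0.05) and 0.0971, for Cd2, after quantile normalization of the genes tested. The unadjusted count was 797, 1329 with the replicate block on the 7 light zone arrays alone, and between 607 and 1227 when single arrays were left out. The highest was without LZ_high replicate 1 and the lowest without LZ_low replicate 3, the array of experiment D. The cause was not tested. Of 1023 alternative list medians, 43 had the opposite sign, all in lists of positive selection, plasma cell, unfolded protein response, cholesterol or glycolysis genes and of myeloid, erythroid or stromal markers. Medians of MHC class II genes lay between -0.42 and -0.26 when single arrays were left out. Among genes above the median gene, where fewer genes enter, T cell markers had a median of -0.76, NK cell markers -0.89 (also above the lower quartile) and myeloid markers -0.62. Of 3062 alternative values of named genes, 14 had the opposite sign, in 4 genes near 0. Single arrays left out gave Prdm1 between -0.12 and 0.20, Xbp1 between -0.31 and 0.26, Egr1 between -0.47 and 0.18 and Egr2 between -0.17 and 0.18. With the title number as replicate block Prdm1 was at -0.0049 and Egr2 at 0.0154, after quantile normalization Xbp1 was at -0.0091, with array weights Prdm1 was at -0.0557 and Xbp1 at -0.15, and after centring arrays on their medians Egr2 was at 0.0189. Fits without the array of D that also used the block, or the other 6 light zone arrays alone, were added after seeing the data. No detection calls exist, so the limit set by signal over background is unknown.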
